A study of Homo sapiens with 8 samples.

Results

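The expressed zinc finger genes named ZNF were examined in A172 cells, an established human glioblastoma line, across a knockdown of the histone deacetylase HDAC2. The members are transcript clusters whose only gene symbol is ZNF followed by digits, with at most one letter after them, and they were chosen by their measured values, a mean log2 signal over the 8 arrays of 6.0 or more. A transcript cluster is the set of array probes that reads one gene, and its log2 signal is the base-2 logarithm of the hybridization intensity, so that a difference of 1 is a doubling. Of 488 ZNF clusters with 471 symbols, 84 met this rule. They are 84 of the 4635 clusters with a single symbol and a mean of 6.0 or more and of the 16098 clusters with a single symbol. The cells were stable lines made with lentivirus and puromycin selection, in which doxycycline switches on a short hairpin RNA. In shHDAC2 cells the hairpin targets HDAC2, and shControl cells carry a control hairpin. Both were harvested after 2 days of doxycycline (DOX(+)) or without it (DOX(-)), with 2 arrays labelled as biological replicates in each of the 4 groups. The labels do not say whether the replicates came from separate cultures, so the tests measure the spread between these samples. For the 2 samples of shControl DOX(+) and the 2 of shHDAC2 DOX(-), one label field names the other construct, and the groups follow the titles and the treatment field. Each comparison below rests on this choice, because each uses samples of these groups. By the other field the constructs of these samples would be exchanged.

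C2H2 zinc finger proteins read DNA through tandem fingers that each hold a zinc ion and contact a few bases. Many ZNF proteins also carry a KRAB domain, which recruits the corepressor TRIM28 and with it histone methylation, heterochromatin proteins and the HDAC-containing NuRD complex. KRAB zinc finger genes lie in clusters of related copies, many of them on human chromosome 19, and are known for silencing retroelements. Other ZNF proteins have no KRAB domain and work in chromatin complexes, in RNA metabolism, on the ribosome or at the spindle. Near-identical copies can share probe signal, so values of single family members are uncertain to that extent.

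The 84 means over all arrays ran from 6.03 to 9.21 with a median of 6.60. The highest were those of ZNF207, which promotes spindle assembly and kinetochore attachment (mean 9.21), and of ZNF358 (8.14) and ZNF460 (8.04). Just inside the threshold lay ZNF322 (6.027) and ZNF496 (6.029), and just outside it ZNF398 (5.973) and ZNF767P (5.974). In 63 of the 84 every group mean was 6.0 or more, and 7 fell under 6.0 when some 1 group was left out of the mean. All 7 did so without shControl DOX(-), and ZNF699, ZNF138, ZNF85, ZNF322 and ZNF25 are among them. By RefSeq (GRCh38.p14), 83 were protein coding and ZNF271P was a transcribed pseudogene, and 31 lay on chromosome 19, with 7 on chromosome 7 and 6 on chromosome 1.

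HDAC2, the target of the shRNA, was compared across the groups. Its log2 signals were 6.42 and 6.30 in shControl DOX(-), 6.14 and 6.15 in shControl DOX(+), 5.69 and 5.80 in shHDAC2 DOX(-), and 4.95 and 5.34 in shHDAC2 DOX(+) cells. It was thus lowest in the group with the induced shRNA and, by the titles, already lower in shHDAC2 cells without doxycycline. Both groups whose label fields conflict lay between the other groups, so HDAC2 does not settle which field is right. The differences were -0.60 upon DOX in shHDAC2 cells (limma adjusted p = 0.0115) and -0.61 between the constructs without DOX (adjusted p = 0.0101). With DOX in both constructs the difference was -0.999 (adjusted p = 0.00858). HDAC2 was also lower with DOX in shControl cells, but that change did not pass. The difference between the DOX responses of the constructs did not pass either. By the methods' t-test the adjusted p values of the 3 differences above were 0.266, 0.113 and 0.38. Each of the 3 calls was also lost when some single arrays were left out. The first became -0.40 (adjusted p = 0.0724) on omitting shHDAC2 DOX(+) replicate 1, or -0.54 (adjusted p = 0.0616) on omitting shHDAC2 DOX(-) replicate 2. The second had an adjusted p of 0.0674 and 0.0575 without replicate 1 of shControl DOX(-) or of shHDAC2 DOX(-). The third had 0.0672 and 0.0686 without either shControl DOX(+) array and 0.0592 without shHDAC2 DOX(+) replicate 1.

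Both arrays of shHDAC2 DOX(-), a group whose label fields conflict, lay apart, which touches every comparison that uses them. Their correlations across clusters with arrays of the other groups were 0.95 to 0.9538, against 0.982 to 0.9911 among the other 3 groups and 0.9855 to 0.9884 between replicates, while the array medians differed little (3.638 to 3.676). Of the glial and glioma markers, VIM, NES and CD44 were expressed (5.42 to 10.34 over the arrays), and GFAP, S100B, OLIG2 and SOX2 were at 2.58 to 5.01. Of the 7, NES and SOX2 rose upon DOX in shHDAC2 cells (1.87 and 0.55, limma adjusted p = 1.36e-05 and 0.00929) and VIM and CD44 fell (-0.94 and -0.69, adjusted p = 0.000163 and 0.00147). Between the constructs without DOX, shHDAC2 minus shControl, NES differed by -2.29 (adjusted p = 4.24e-06) and VIM by 0.58 (adjusted p = 0.00276). Of the markers of other cell types with a cluster here, SYP, PECAM1 and EPCAM were at 2.10 to 5.75. CD68, a lysosomal protein abundant in macrophages, was at 10.82 and 10.84 in shHDAC2 DOX(-) against 7.77 to 8.40 in the other arrays, and the part of these markers in the results below was not tested. In RNA of a whole culture, less RNA in each cell and fewer cells that make it cannot be told apart.

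The promoters of these genes were searched for 8 short motifs. RefSeq promoters, 250 bases before to 50 after the start (GRCh38.p14), were matched for 75 of the 84 genes. The ETS core CCGGAAG, read on both strands, was in 41.3% of the 75, against 21.4% of 3569 other genes with a cluster mean of 6.0 or more and 10.7% of all 27305 promoters. It was in 19 of the 36 that rose upon DOX in shHDAC2 cells (52.8%), in 2 of the 8 that fell (25%) and in 10 of the 31 not called (32.3%). Among the other genes the core was in 17.7% of the 1016 that rose and in 22.9% of the 2553 that did not. The median number of CpG dinucleotides was 24 in the promoters of the ZNF genes, 27 in those of the other expressed genes and 14 in all. The other motifs, also read on both strands, were the YY1 core AAGATGG (10.7% of the 75 and 9.47% of the other expressed genes), the CCAAT box (41.3% and 37.6%), the SP/KLF box GGGCGG (73.3% and 74.3%) and the NRF1 core GCGCATGCG (6.67% and 4.71%). The ZNF143 core ACTACAA was in 8.0% and 3.67%, the CRE core TGACGTCA in 9.33% and 3.64%, and the E2F core TTTGGCGC in 0% and 1.37%. A match is a description of the letters, not of binding, and the motifs were chosen with the changes of these genes known.

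The promoters of ZNF genes that carry the results are printed 5′ to 3′ on the gene's strand because the results turn on these genes. Capitals mark the ETS core on either strand (CCGGAAG or CTTCCGG) or the YY1 core AAGATGG. ZNF138, ZNF85 and ZNF687 are among the largest rises and hold the ETS core. Of the large rises not printed, ZNF266 and ZNF71 do not hold it, ZNF75A does, and ZNF827 had no promoter here. The falls ZNF384 and ZNF335 also hold it. ZNF699 is the largest rise and ZNF800 the largest fall, and ZNF25 and ZNF322 were lower in shHDAC2 cells with and without DOX.
ZNF138, chr7:64794178-64794477, plus strand: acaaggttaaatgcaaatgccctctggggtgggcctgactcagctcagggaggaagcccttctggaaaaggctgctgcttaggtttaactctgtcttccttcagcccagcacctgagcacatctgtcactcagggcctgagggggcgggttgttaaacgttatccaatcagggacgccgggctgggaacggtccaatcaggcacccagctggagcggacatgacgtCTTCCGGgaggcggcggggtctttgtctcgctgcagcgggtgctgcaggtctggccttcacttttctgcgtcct
ZNF85, chr19:20923001-20923300, plus strand: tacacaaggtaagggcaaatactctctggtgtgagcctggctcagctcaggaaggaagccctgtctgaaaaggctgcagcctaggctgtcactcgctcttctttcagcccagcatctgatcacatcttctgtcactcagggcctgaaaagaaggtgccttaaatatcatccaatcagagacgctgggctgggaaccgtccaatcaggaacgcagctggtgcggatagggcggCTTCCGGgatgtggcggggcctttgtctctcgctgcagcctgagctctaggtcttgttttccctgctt
ZNF687, chr1:151281272-151281571, plus strand: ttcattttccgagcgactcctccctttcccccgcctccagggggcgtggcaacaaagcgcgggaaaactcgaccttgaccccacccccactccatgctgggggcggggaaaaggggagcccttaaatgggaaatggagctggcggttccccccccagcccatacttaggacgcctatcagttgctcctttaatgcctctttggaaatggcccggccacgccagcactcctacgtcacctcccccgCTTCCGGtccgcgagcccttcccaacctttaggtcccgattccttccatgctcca
ZNF699, chr19:9309789-9310088, minus strand: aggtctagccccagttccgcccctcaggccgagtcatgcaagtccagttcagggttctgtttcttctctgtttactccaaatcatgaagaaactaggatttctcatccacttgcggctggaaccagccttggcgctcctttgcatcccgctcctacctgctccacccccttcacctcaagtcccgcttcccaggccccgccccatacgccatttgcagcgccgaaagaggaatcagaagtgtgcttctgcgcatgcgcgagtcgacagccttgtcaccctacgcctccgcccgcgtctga
ZNF800, chr7:127392659-127392958, minus strand: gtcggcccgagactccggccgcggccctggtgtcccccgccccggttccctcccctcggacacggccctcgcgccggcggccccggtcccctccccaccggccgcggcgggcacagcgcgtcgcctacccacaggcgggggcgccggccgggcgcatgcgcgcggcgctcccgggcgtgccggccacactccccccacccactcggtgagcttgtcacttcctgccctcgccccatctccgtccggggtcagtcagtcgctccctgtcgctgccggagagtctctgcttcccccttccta
ZNF25, chr10:37976598-37976897, minus strand: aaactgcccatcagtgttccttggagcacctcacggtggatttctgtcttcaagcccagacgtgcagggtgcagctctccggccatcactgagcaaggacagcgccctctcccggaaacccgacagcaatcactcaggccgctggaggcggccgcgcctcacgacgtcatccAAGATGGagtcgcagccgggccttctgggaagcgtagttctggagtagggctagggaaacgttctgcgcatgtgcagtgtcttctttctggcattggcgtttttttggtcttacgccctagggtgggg
ZNF322, chr6:26659697-26659996, minus strand: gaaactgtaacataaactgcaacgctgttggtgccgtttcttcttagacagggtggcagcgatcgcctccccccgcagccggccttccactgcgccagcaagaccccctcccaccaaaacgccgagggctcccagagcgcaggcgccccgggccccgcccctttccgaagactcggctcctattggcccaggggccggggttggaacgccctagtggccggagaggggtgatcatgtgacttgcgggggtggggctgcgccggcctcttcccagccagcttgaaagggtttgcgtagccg
The promoters of ZNF138 and ZNF85, KRAB genes of different chromosomes, matched at 242 of 312 aligned positions (77.6%), and both hold the core shortly before the start. The other pairs of these promoters matched at 48.0% to 54.2% of positions. ZNF699, ZNF800 and ZNF322 hold neither capitalised core in this window, and ZNF25 holds the YY1 core.

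Levels in shHDAC2 cells without doxycycline were set against those of all other arrays. Both shHDAC2 DOX(-) arrays were below all 6 other arrays in 46 of the 84 genes (54.8%) and above them in 12 (14.3%). Over all clusters with a mean of 6.0 or more these shares were 37.3% and 26.2%. In either direction together they were 69% of the ZNF genes and 63.5% of the expressed clusters, so lying apart in this group was not particular to the ZNF genes. The median log2 signal of the 84 genes was 6.72 and 6.69 in shControl DOX(-), 6.66 and 6.70 in shControl DOX(+), 6.31 and 6.40 in shHDAC2 DOX(-), and 6.65 and 6.67 in shHDAC2 DOX(+) cells. The shHDAC2 DOX(-) arrays were thus the low ones, and the shHDAC2 DOX(+) arrays lay in or next to the range of the shControl arrays.

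**Figure D1:**
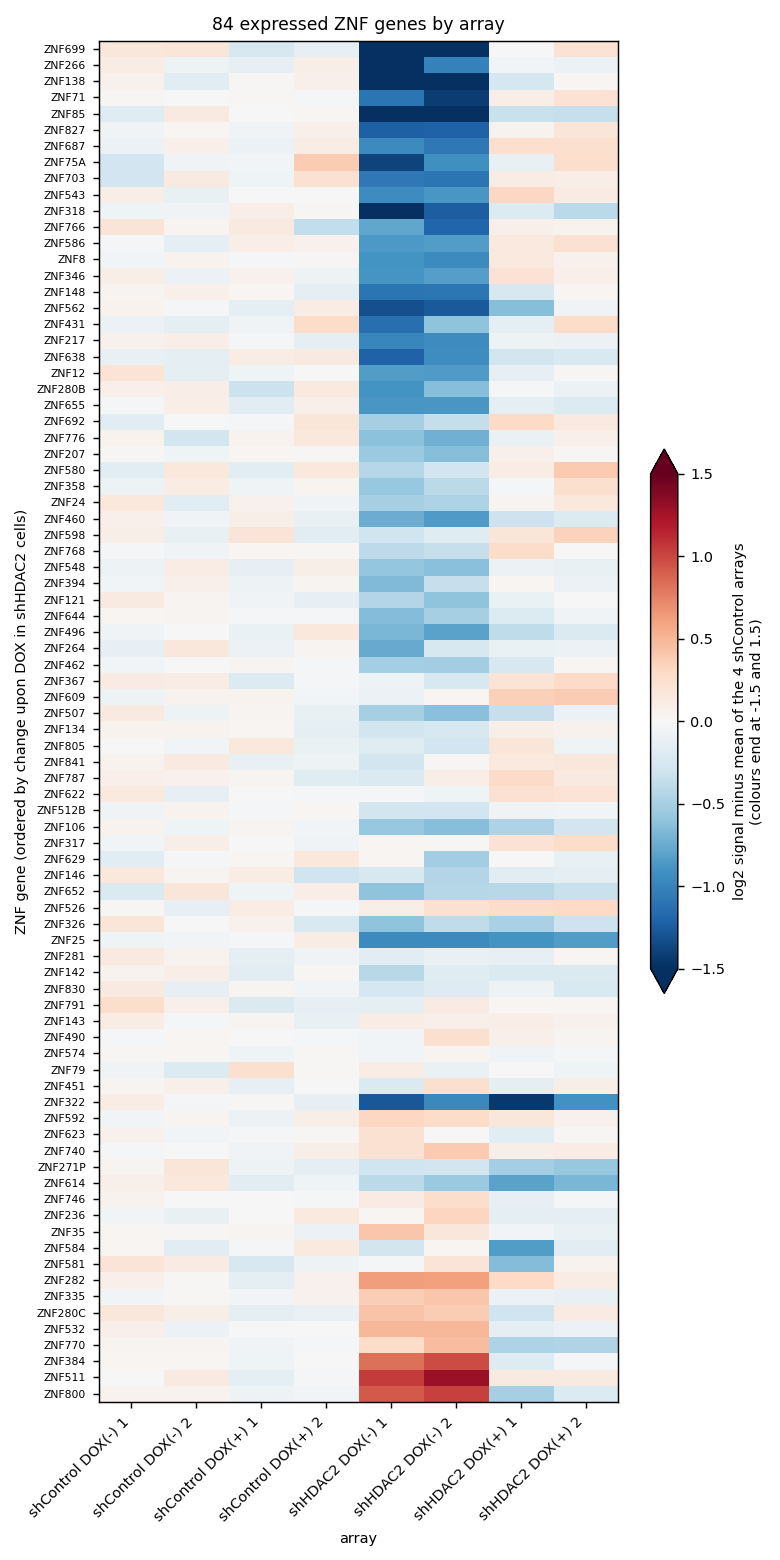
Log2 signal of the 84 ZNF genes (rows, ordered by their change upon DOX in shHDAC2 cells) in each of the 8 arrays (columns), as the difference from the mean of the 4 shControl arrays. Red is higher and blue lower, and the 2 shHDAC2 DOX(-) columns hold most of the strong colours, with 46 genes below and 12 above all other arrays.

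The first comparison is shHDAC2 DOX(+) against shHDAC2 DOX(-), the group whose arrays lay apart. Whether a change here comes from the induced shRNA was not tested. By limma at an adjusted p under 0.05, 41 of the 84 ZNF genes rose upon DOX and 8 fell, and 35 did not pass. The rises of those that passed ran from 0.34 to 2.14 on the log2 scale and the falls from -0.41 to -1.32. A rise passed in 15% of all clusters tested and in 28.9% of those with a mean of 6.0 or more, and a fall in 15.6% and 22.7%. The rises were 27 without shHDAC2 DOX(+) replicate 2, and the methods' t-test called 2 rises and 0 falls after adjustment, with 42 genes under 0.05 before it. The 41 of 84 are 48.8% and the 8 of 84 are 9.52%. The median change of the 84 genes was 0.34 against 0.05 over clusters with a mean of 6.0 or more. Of the 77 genes that stay at 6.0 or more whichever group is left out of the mean, 36 rose and 8 fell. Of the 404 ZNF clusters under the threshold, 93 rose (23.0%) and 33 fell (8.17%).

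The largest rise was that of ZNF699. ZNF699, ZNF138 and ZNF85 have a mean under 6.0 without shControl DOX(-), where they are high. Among the 77 genes that stay at 6.0 or more whichever group is left out, the largest rise was that of ZNF266 (1.52). ZNF699, a KRAB gene mutated in a human developmental syndrome, was at 6.80 and 6.81 in shControl DOX(-), 6.39 and 6.51 in shControl DOX(+), 4.46 and 4.71 in shHDAC2 DOX(-), and 6.62 and 6.84 in shHDAC2 DOX(+) cells. The shHDAC2 DOX(-) arrays were the low pair and the shHDAC2 DOX(+) arrays overlapped the range of the shControl arrays. It rose upon DOX in shHDAC2 cells by 2.14 (standard error 0.13, adjusted p = 4.04e-06). ZNF138, a KRAB gene of chromosome 7, was at 6.54 and 6.32, 6.5 and 6.55, 4.98 and 4.79, and 6.21 and 6.5 in the same order of groups. It rose by 1.47 (standard error 0.14, adjusted p = 6.54e-05), and its DOX(-) and DOX(+) arrays of shHDAC2 cells did not overlap. ZNF85, a KRAB gene of chromosome 19, was at 6.39 and 6.71, 6.58 and 6.60, 5.00 and 4.72, and 6.24 and 6.22. Here too the low pair was shHDAC2 DOX(-), and the rise was 1.37 (standard error 0.14, adjusted p = 9.67e-05). ZNF71, described as induced by tumour necrosis factor in endothelial cells, went from 6.21 and 5.88 to 7.40 and 7.53 in shHDAC2 cells, against 7.27 to 7.33 in the 4 shControl arrays. It was therefore the shHDAC2 DOX(-) pair that lay apart, and the rise was 1.42 (adjusted p = 5.01e-05).

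ZNF827, which recruits the NuRD complex to telomeres in cells that maintain them by recombination, was at 7.64 and 7.72, 7.64 and 7.76, 6.46 and 6.48, and 7.75 and 7.87. It rose by 1.34 (standard error 0.11, adjusted p = 2.68e-05). ZNF687, a partner of ZNF592 and ZMYND8 in a chromatin complex, was at 7.01 and 7.16, 7.0 and 7.21, 6.14 and 6.03, and 7.35 and 7.34, and rose by 1.26 (adjusted p = 6.07e-05). In both genes the 2 shHDAC2 DOX(-) arrays lay below all others with a narrow gap between replicates. ZNF266 varied more, with 4.46 and 5.60 in shHDAC2 DOX(-) against 6.49 to 6.72 in the other 6 arrays, so that its rise of 1.52 had a standard error of 0.30 (adjusted p = 0.00406). ZNF75A, with 5.26 and 5.73 in shHDAC2 DOX(-) and 6.55 and 6.93 in shHDAC2 DOX(+), rose by 1.24 (adjusted p = 0.00189).

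**Figure D2:**
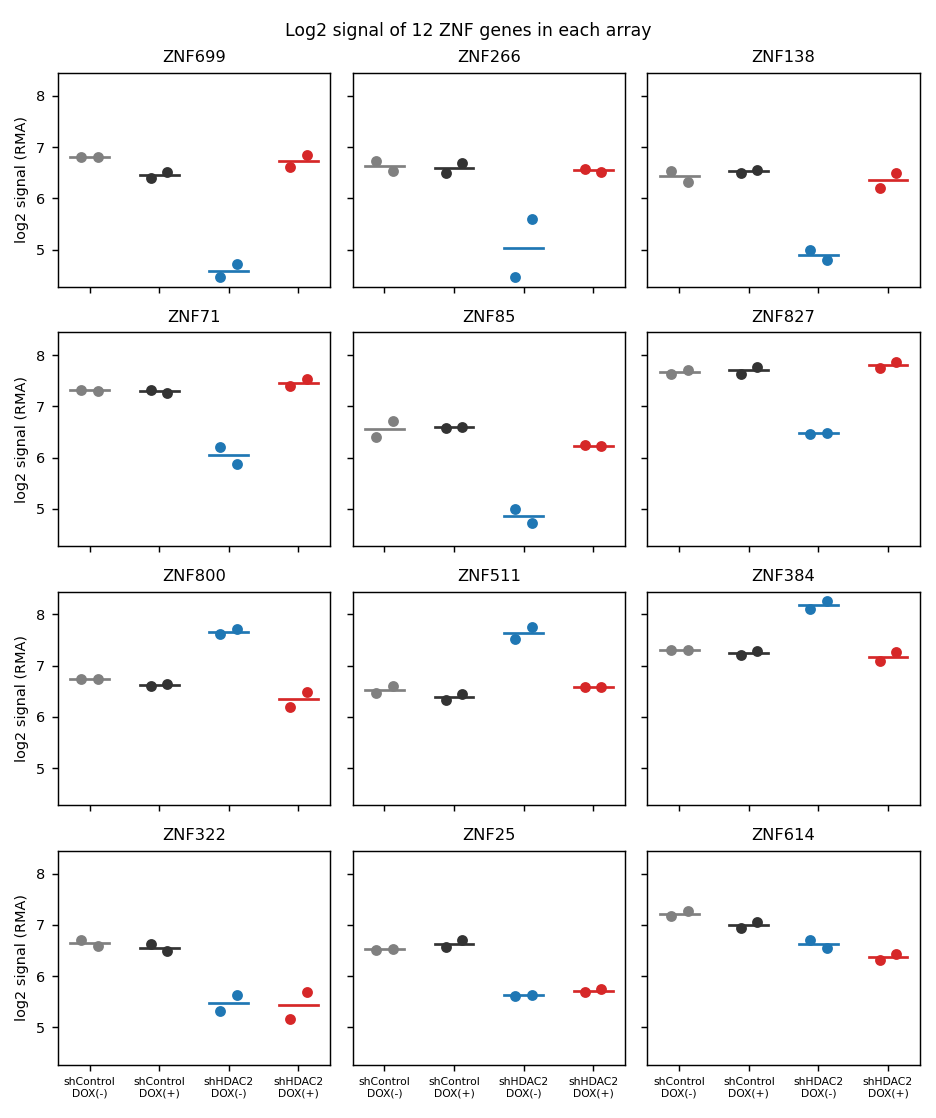
Log2 signal (vertical axis) of 12 ZNF genes in the 4 groups, with a point per array and a line at the mean of the 2 arrays. In the upper 6 genes shHDAC2 DOX(-) is low, in ZNF800, ZNF511 and ZNF384 it is high, and ZNF322, ZNF25 and ZNF614 are lower in both shHDAC2 groups than in both shControl groups.

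The largest of the 8 falls was that of ZNF800. ZNF800, a repressor of enteroendocrine genes in human intestinal cells, was at 6.74 and 6.75 in shControl DOX(-), 6.61 and 6.65 in shControl DOX(+), 7.61 and 7.71 in shHDAC2 DOX(-), and 6.20 and 6.48 in shHDAC2 DOX(+) cells. The shHDAC2 DOX(-) arrays were the high pair, and the gene fell upon DOX by 1.32 (standard error 0.12, adjusted p = 5.65e-05). ZNF511 was at 6.46 and 6.60, 6.33 and 6.45, 7.51 and 7.75, and 6.59 and 6.59, with a change of -1.04 (adjusted p = 0.000221). ZNF384, a transcription factor known as a fusion partner in acute leukaemia, was at 7.31 and 7.31, 7.21 and 7.28, 8.11 and 8.25, and 7.08 and 7.26, with a change of -1.01 (adjusted p = 0.000182). A second, dimmer cluster of ZNF384 (mean 5.20) changed by -0.87 (adjusted p = 0.00153). ZNF770 changed by -0.83 (adjusted p = 0.00047), while its second cluster, at a mean of 2.27, changed by 0.02 (adjusted p = 0.958).

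The other falls were smaller. ZNF532, a partner in the NUT fusion of NUT carcinoma, changed by -0.60 (adjusted p = 0.00259), and ZNF335, a subunit of a histone H3 lysine methyltransferase complex, by -0.49 (adjusted p = 0.00691). ZNF280C, which limits the resection of DNA ends, changed by -0.50 (adjusted p = 0.0282) and ZNF282, which binds a viral long terminal repeat, by -0.41 (adjusted p = 0.0296). Both calls were lost without any of 3 of the 4 shHDAC2 arrays, with adjusted p values of 0.077 to 0.165.

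By role, the genes that work on chromatin without a KRAB domain moved both ways. Of 25 listed, 13 are among the 84 genes, and 8 of these rose, 2 fell and 3 did not pass. Of all expressed clusters 28.9% rose and 22.7% fell. The list was chosen from general knowledge and leaves out ZNF335, which is among the falls above. ZNF703, a breast cancer oncogene and corepressor, rose by 1.19 (adjusted p = 0.000438), from 5.30 and 5.29 to 6.49 and 6.48, against 6.09 to 6.60 in the shControl arrays. ZNF217, a CoREST-associated oncogene, rose by 0.88 (adjusted p = 0.00022) and ZNF148, a GC-box binding factor, by 0.98 (adjusted p = 0.000394). ZNF644, which works with the histone methyltransferase G9a, rose by 0.45 (adjusted p = 0.0149). ZNF592 differed by -0.18 (adjusted p = 0.29), so of the 2 complex partners ZNF687 rose and ZNF592 did not pass. ZNF143, which binds promoters at chromatin loops, was at 5.91 to 6.13 in all 8 arrays and differed by -0.01 (95% interval -0.27 to 0.24).

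Of 8 listed genes of RNA metabolism and the ribosome, 6 are among the 84, and 3 of them rose and 0 fell, beside the same 28.9% and 22.7%. ZNF346, a binder of double-stranded RNA, rose by 1.00 (adjusted p = 0.000241), from 6.07 and 6.13 to 7.17 and 7.03. ZNF638, a nuclear protein that silences unintegrated retroviral DNA, rose by 0.82 (adjusted p = 0.000864). ZNF598, the ubiquitin ligase that marks collided ribosomes, rose by 0.51 (adjusted p = 0.0302), a call lost without any 1 of the 4 shHDAC2 arrays (adjusted p of 0.0561 to 0.15). ZNF622, a factor of large ribosomal subunit maturation, differed by 0.25 (adjusted p = 0.152). Of 4 listed spindle and cell cycle genes, 3 are among the 84. ZNF207 went from 8.79 and 8.71 to 9.42 and 9.36 and rose by 0.64 (adjusted p = 0.00155). ZNF367 rose by 0.40 (adjusted p = 0.0287), lost without any of 3 of the 4 shHDAC2 arrays (adjusted p of 0.0669 to 0.147), and ZNF830 differed by 0.07 (adjusted p = 0.747).

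Of 8 listed KRAB repressors of retroelements or of ZNF and imprinted loci and 7 of damage and tumour pathways, 1 each is among the 84. ZNF431, a repressor of the Hedgehog receptor gene Ptch1 in mouse, rose by 0.93 (adjusted p = 0.0077), lost without shHDAC2 DOX(-) replicate 1 (0.67, adjusted p = 0.0508) or shHDAC2 DOX(+) replicate 2 (0.72, adjusted p = 0.0625). ZNF746, a repressor of PGC-1α that is degraded through parkin, differed by -0.27 (adjusted p = 0.108). ZNF451, a SUMO ligase, differed by -0.04 (adjusted p = 0.882) in its brighter cluster, while its dimmer cluster (mean 5.44) fell by 0.48 (adjusted p = 0.00898). The 95% intervals of these clusters overlap (-0.41 to 0.32 and -0.73 to -0.23), and their difference was not tested.

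The share of rises was set beside that of related groups. Of 26 expressed genes of 5 other zinc finger families (13 ZBTB, 9 KLF, 2 ZFP, 2 ZKSCAN and 0 ZSCAN), 8 rose and 8 fell. That is 30.8% each way, where 28.9% of all clusters with a mean of 6.0 or more rose and 22.7% fell. The KLF genes had 2 rises and 5 falls (22.2% and 55.6%). Of the corepressors and silencing factors that KRAB proteins use, 13 of 17 listed had a cluster. Of these 13, 10 had a mean of 6.0 or more. In all 4 rose and 4 fell (30.8% each way), and the targeted HDAC2 is among the falls. The shares of clusters with a mean of 6.0 or more were 28.9% and 22.7%, and those of all clusters tested 15% and 15.6%. TRIM28, the direct KRAB partner, was at 9.03 to 9.58 in all 8 arrays and differed by 0.28 (adjusted p = 0.166). MPHOSPH8, a subunit of the HUSH silencing complex, rose by 1.39 (adjusted p = 2.23e-05), and CBX5, the heterochromatin protein HP1 alpha, fell by 1.61 (adjusted p = 1.3e-05). The difference in these shares between the ZNF genes and the other groups was not tested.

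**Figure D3:**
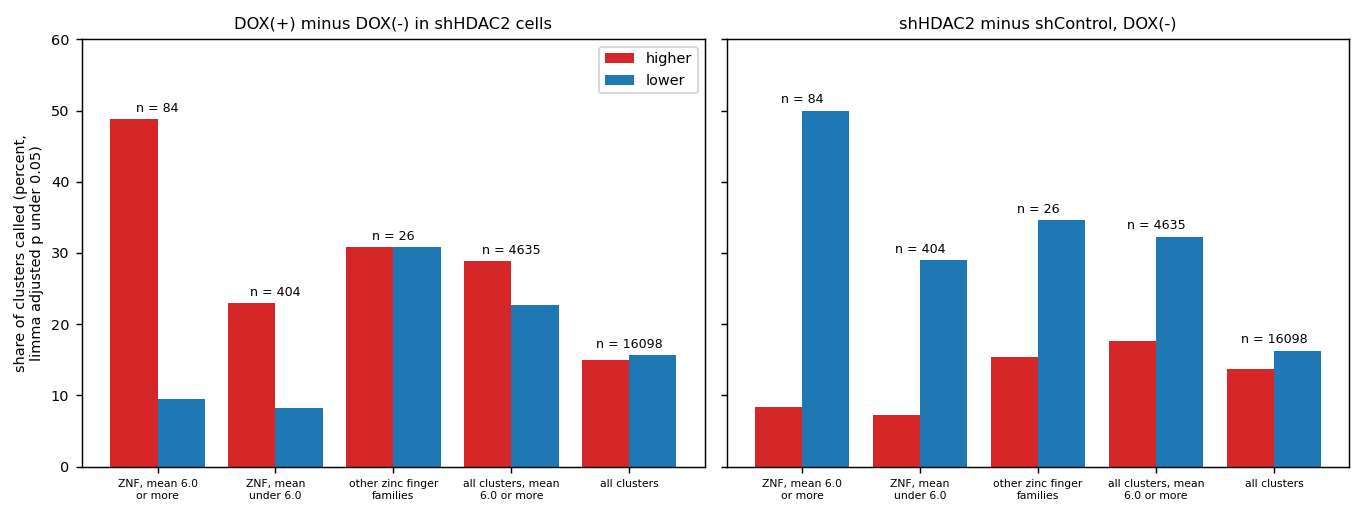
Share of clusters (percent, vertical axis) that were higher (red) or lower (blue) at a limma adjusted p under 0.05, upon DOX in shHDAC2 cells (left) and between the constructs without DOX (right). Of the 84 expressed ZNF genes 48.8% rose and 9.52% fell on the left, and on the right 8.33% were higher and 50% lower, against 17.7% and 32.3% of all clusters with a mean of 6.0 or more.

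The 31 genes of chromosome 19 moved in one direction where they passed. Of these, 17 rose upon DOX in shHDAC2 cells (54.8%) and 0 fell, with a median change of 0.47. A further 3 had an unadjusted p under 0.05 and did not pass after adjustment. Of the 53 genes on other chromosomes 24 rose (45.3%) and 8 fell (15.1%), with a median of 0.23. The share called in either direction was thus 54.8% on chromosome 19 and 60.4% elsewhere. Among 291 other expressed clusters of chromosome 19, 71 rose (24.4%) and 38 fell (13.1%), with a median of 0.03. Over all clusters with a mean of 6.0 or more 28.9% rose and 22.7% fell. Neighbours were grouped where the next of the 31 genes starts within 1 Mb in RefSeq order. In the group of ZNF317, ZNF699, ZNF266, ZNF121 and ZNF562, 4 of 5 rose, and ZNF317 differed by 0.22 (adjusted p = 0.16). ZNF85 and ZNF431 both rose. In the group of 14 genes from ZNF581 to ZNF584, 9 rose, among them ZNF71 (1.42), ZNF543 (1.13), ZNF586 (1.04) and ZNF8 (1.03). Its end members ZNF581 and ZNF584 differed by -0.39 and -0.38 (adjusted p of 0.21 and 0.23). In the group of ZNF614, ZNF841 and ZNF766, ZNF766 rose by 1.05 (adjusted p = 0.00246) and ZNF614 differed by -0.26 (adjusted p = 0.133).

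**Figure D4:**
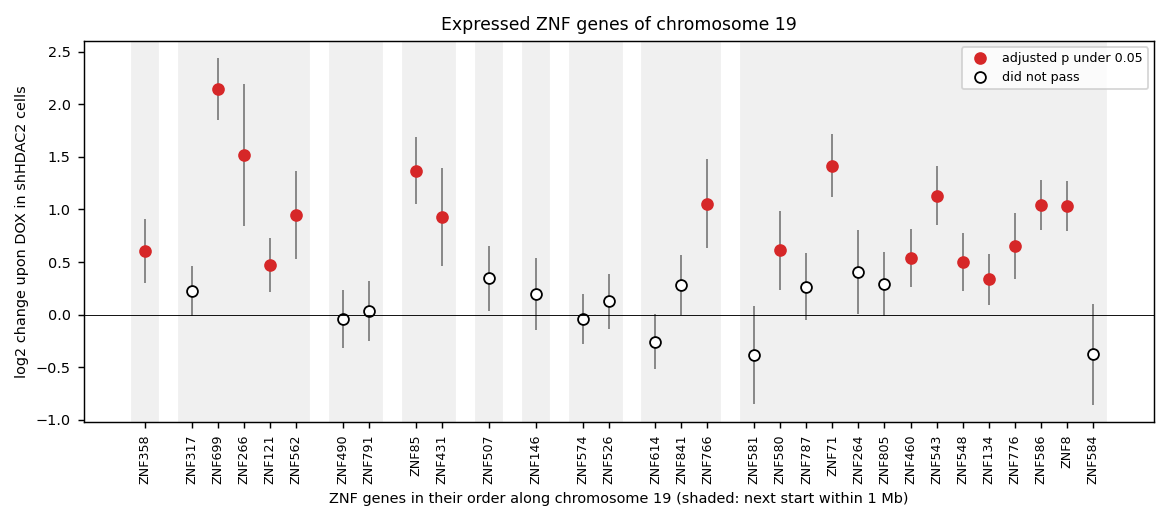
Log2 change upon DOX in shHDAC2 cells (vertical axis, with 95% intervals from limma) of the 31 expressed ZNF genes of chromosome 19, in their order along the chromosome. Shading joins genes whose starts lie within 1 Mb of the next, filled points passed an adjusted p of 0.05, and the 17 that passed all lie above 0.

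The second comparison asks what doxycycline did in cells that, by the titles, lack the HDAC2 shRNA. In shControl cells 0 of the 84 ZNF genes passed in limma, as did 0% of all clusters tested, and 2 of the 84 were under 0.05 before adjustment. By the methods' t-test this was so for 6, with 0 after adjustment. The 84 differences ran from -0.36 to 0.34. The 2 were ZNF699, at 6.80 and 6.81 without DOX and 6.39 and 6.51 with it (-0.36, unadjusted p = 0.0237, adjusted p = 0.834), and ZNF791 (-0.34, unadjusted p = 0.0248, adjusted p = 0.834). They were singled out after their values were seen.

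The DOX responses of the 2 constructs were then compared directly, by the interaction of construct and DOX. It passed for 32 of the 84 genes, with 26 responses higher and 6 lower in shHDAC2 than in shControl cells. These are 38.1% of the ZNF genes, against 33.9% of the expressed clusters in either direction. Among the 77 genes that stay at 6.0 or more whichever group is left out of the mean, 22 responses were higher and 6 lower. Over all clusters tested 9.57% were higher and 10% lower, and over those with a mean of 6.0 or more 19.3% and 14.6%. The differences between the responses were 2.50 for ZNF699 (standard error 0.18, adjusted p = 2.81e-05), 1.44 for ZNF71 (adjusted p = 0.000763), 1.37 for ZNF138 (adjusted p = 0.00155) and 1.33 for ZNF85 (adjusted p = 0.00178). ZNF266 had a difference of 1.55 (standard error 0.42, adjusted p = 0.031), and this call was lost without any 1 of the shControl or shHDAC2 DOX(+) arrays (adjusted p of 0.0622 to 0.0935). Lower responses were led by ZNF800 (-1.21, adjusted p = 0.00153), ZNF384 (-0.95, adjusted p = 0.00369) and ZNF511 (-0.90, adjusted p = 0.00673). ZNF770 (-0.75, adjusted p = 0.00949) and ZNF532 (-0.61, adjusted p = 0.0224) followed, and the latter call was lost without any of 6 arrays (adjusted p of 0.0525 to 0.0845). The count was 21, with 17 higher, without shControl DOX(+) replicate 1, and 22, also with 17 higher, without shControl DOX(-) replicate 1.

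The constructs were compared without doxycycline, where the shRNA should not be induced. Of the 84 ZNF genes, 42 were lower in shHDAC2 cells and 7 higher. The median difference was -0.46. Among the 77 genes that stay at 6.0 or more whichever group is left out of the mean, 35 were lower (45.5%) and 7 higher, with a median of -0.36. The 7 became 4 without shControl DOX(-) replicate 2, and the methods' t-test called 3 lower and 0 higher after adjustment, with 45 under 0.05 before it. Over all clusters tested 16.3% were lower and 13.7% higher, and over those with a mean of 6.0 or more 32.3% and 17.7%. The largest lower values were those of ZNF699 (-2.22, adjusted p = 3.55e-06), ZNF85 (-1.69, adjusted p = 3e-05), ZNF266 (-1.60, adjusted p = 0.00316) and ZNF138 (-1.54, adjusted p = 5.43e-05). ZNF318, a nuclear protein needed for IgD expression in mouse B cells, was at 7.24 and 7.26 in shControl and 5.78 and 6.08 in shHDAC2 cells (-1.32, adjusted p = 9.11e-05). Higher in shHDAC2 cells were ZNF511 (1.10, adjusted p = 0.000172), ZNF800 (0.92, adjusted p = 0.00055), ZNF384 (0.87, adjusted p = 0.000461), ZNF282 (0.57, adjusted p = 0.0063) and ZNF532 (0.50, adjusted p = 0.00709). The call of ZNF532 was lost without shControl DOX(-) replicate 2 (0.42, adjusted p = 0.0575). This comparison and the first share the shHDAC2 DOX(-) arrays, so a low value there enters both.

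With doxycycline in both constructs fewer genes passed. Of the 84 ZNF genes 3 were lower in shHDAC2 than in shControl cells and 0 were higher, and 16 had an unadjusted p under 0.05. The 3 lower genes are 3.57% of the 84. Over all clusters tested 2.89% were lower and 0.77% higher, and over those with a mean of 6.0 or more 6.32% and 1.38%. Among the 77 genes that stay at 6.0 or more whichever group is left out of the mean, 1 was lower, ZNF614. ZNF322 and ZNF25 have a mean under 6.0 without shControl DOX(-), where they are high. Testing only the clusters with a mean of 6.0 or more called 12 of the 84 genes, 9 lower and 3 higher. The share of all clusters called in that test is not given here. The methods' t-test called 0 after adjustment and 12 before it. The median of the 84 differences was -0.03 and they ran from -1.13 to 0.37. ZNF322, a factor linked to growth in lung cancer, was at 6.71 and 6.59 in shControl DOX(-), 6.62 and 6.48 in shControl DOX(+), 5.32 and 5.64 in shHDAC2 DOX(-), and 5.15 and 5.70 in shHDAC2 DOX(+) cells. Both shHDAC2 groups were thus low and overlapped each other. It was lower by -1.13 with DOX (standard error 0.19, adjusted p = 0.0146) and by -1.17 without (adjusted p = 0.0013), and its second cluster, at a mean of 3.83, differed by -0.83 (adjusted p = 0.0363) and -0.63 (adjusted p = 0.0237).

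ZNF25 was at 6.52 and 6.54, 6.57 and 6.70, 5.62 and 5.62, and 5.69 and 5.75 in the same order, a difference of -0.91 with DOX (standard error 0.11, adjusted p = 0.00352) and of -0.91 without (adjusted p = 0.000227). Its replicates lay close together and the constructs did not overlap. ZNF614 was at 7.18 and 7.27, 6.94 and 7.05, 6.70 and 6.55, and 6.31 and 6.42, a difference of -0.63 with DOX (adjusted p = 0.0218) and of -0.60 without (adjusted p = 0.0038). The change upon DOX in shHDAC2 cells was -0.05 for ZNF322 (95% interval -0.47 to 0.37), 0.10 for ZNF25 (-0.15 to 0.34) and -0.26 for ZNF614 (-0.52 to 0.00). With DOX, the call of ZNF322 was lost without either shControl DOX(+) array or shHDAC2 DOX(+) replicate 1 (adjusted p of 0.0747 to 0.108), and that of ZNF614 without any 1 of the 4 DOX(+) arrays (adjusted p of 0.0621 to 0.15). The count of 3 was then 1, that of ZNF25, without either shControl DOX(+) array or shHDAC2 DOX(+) replicate 1.

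Set side by side, the constructs differed less in these genes with DOX than without. These 2 comparisons share no array. Of the 42 genes that were lower without DOX, 39 lay within 0.5 of the shControl mean with DOX, where their median difference was -0.07 against -0.87 without. The 7 genes that were higher without DOX all lay within 0.5 with DOX. Both sets were picked by their difference without DOX, so a smaller difference in the other arrays follows in part from that choice. Of all 84, 80 were within 0.5 with DOX (95.2%) and 41 without (48.8%). The expressed clusters had the same order, with 90.6% and 60.9%, so the smaller difference with DOX was not particular to the ZNF genes. Across the 84 genes the differences without and with DOX had a Pearson correlation of 0.163, and across the 4635 expressed clusters of 0.097, given as a description because the genes share their arrays.

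**Figure D5:**
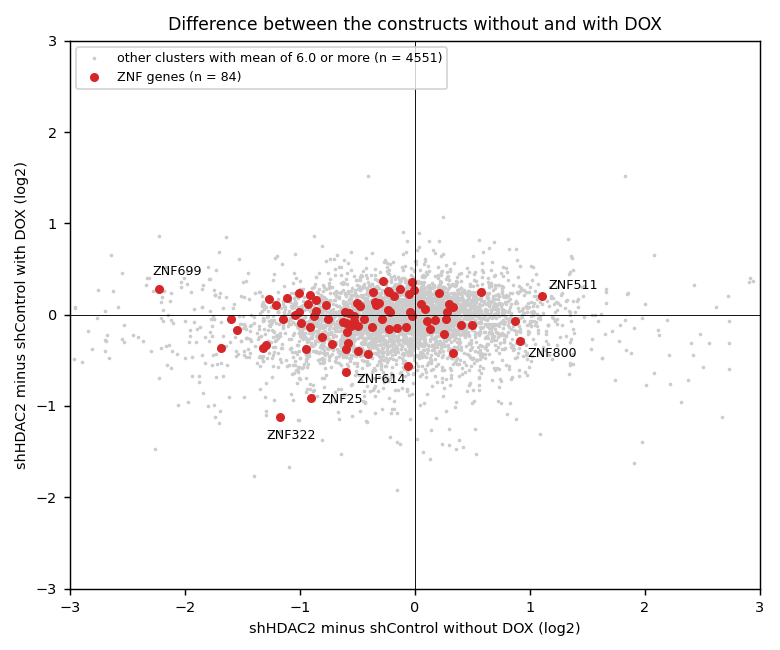
Difference in log2 signal between shHDAC2 and shControl cells without DOX (horizontal axis) and with DOX (vertical axis) for the 84 ZNF genes (red) and the 4551 other clusters with a mean of 6.0 or more (grey, 57 outside the axes). The red points spread from -2.22 to 1.10 along the horizontal axis and from -1.13 to 0.37 along the vertical one.

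Against the 4 shControl arrays together, which leaves out shHDAC2 DOX(-), 5 of the 84 genes were lower in shHDAC2 DOX(+) cells and 0 higher, with 20 at an unadjusted p under 0.05. Testing only the clusters with a mean of 6.0 or more called 14 lower and 4 higher, and the methods' t-test 2 lower. The share of all clusters called in these tests is not given here. The 5 lower genes are 5.95% of the 84. Over all clusters tested 4.7% were lower and 1.25% higher, and over those with a mean of 6.0 or more 10.4% and 2.14%. Among the 77 genes that stay at 6.0 or more whichever group is left out of the mean, 3 were lower, without ZNF322 and ZNF25. The 5 were ZNF322 (-1.17, adjusted p = 0.00486), ZNF25 (-0.86, adjusted p = 0.00159), ZNF614 (-0.74, adjusted p = 0.00453), the pseudogene ZNF271P (-0.54, adjusted p = 0.0131) and ZNF770 (-0.45, adjusted p = 0.0279). ZNF271P was at 6.80 and 6.95 in shControl DOX(-), 6.69 and 6.61 in shControl DOX(+), 6.46 and 6.48 in shHDAC2 DOX(-), and 6.26 and 6.19 in shHDAC2 DOX(+) cells. The 4 shHDAC2 arrays of this pseudogene were below the 4 shControl arrays. ZNF770 was at 6.39 and 6.40 in shHDAC2 DOX(+) against 6.80 to 6.89 in shControl and 7.13 and 7.32 in shHDAC2 DOX(-) cells, so it was below the controls with DOX and above them without. Its call was lost without any 1 of the 6 arrays compared (adjusted p of 0.0736 to 0.165), that of ZNF271P without either shHDAC2 DOX(+) array (adjusted p of 0.0898 and 0.0796), and that of ZNF614 without shHDAC2 DOX(+) replicate 1 (adjusted p = 0.0635). Without shHDAC2 DOX(+) replicate 1 the count was 2.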

How the data were processed

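Total RNA of 8 A172 samples was read on Affymetrix Human Gene 2.0 ST arrays. The authors used Affymetrix Expression Console for RMA, which corrects background, quantile-normalizes and summarises per transcript cluster, and they deposited the resulting log2 signals. Tool versions and build: not given in the sources used here. Quantile normalization gives every array the same distribution, so it hides a common shift of most genes. For the extraction the methods name RNeasy Plus Mini and Trizol, and the labels Trizol.

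Gene symbols came from the platform annotation, which can be old. Group means were estimated with limma 3.58.1 (R 4.3.3) on all 8 arrays and the 16098 clusters with exactly 1 symbol, with no further filter. P-values are two-sided and adjusted by Benjamini-Hochberg over all 16098 clusters, and a gene is called at an adjusted p under 0.05. The 4 residual degrees of freedom limit the precision of every value. Up to 8 genes each way were named in the first comparison and up to 5 in the others, by size of change among called genes whose arrays do not overlap, with up to 4 per role. The members, lists, comparisons and motifs were chosen with earlier results of these data known, and other genes are named in the text for their level, role or neighbourhood after their values were seen. The general test of 2 groups that the methods name is called the methods' t-test and was an alternative. The other alternatives were the replicate block, leaving out each array, other clusters tested or normalization, array weights, a variance trend, a fold minimum and other membership rules. KRAB and finger motifs were not read from protein sequences. The 9 genes without a promoter here were ZNF271P, ZNF280B, ZNF394, ZNF462, ZNF512B, ZNF623, ZNF703, ZNF746 and ZNF827. Promoters were aligned in pairs end to end. The steps were tested on simulated data.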

Additional observations from a re-analysis of the deposited data

Results flagged for a closer look

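The response to DOX differed between shHDAC2 and shControl cells in 32 of the 84 ZNF genes by the interaction in limma (adjusted p under 0.05). That is 38.1% of them, close to the 33.9% of all clusters with a mean of 6.0 or more. Of the genes named in the text, the response was higher in shHDAC2 cells for ZNF699 (log2 difference of 2.50), ZNF266 (1.55), ZNF71 (1.44), ZNF138 (1.37), ZNF85 (1.33), ZNF827 (1.32) and ZNF687 (1.25). It was also higher for ZNF703 (1.03), ZNF346 (1.01), ZNF367 (0.64), ZNF207 (0.60) and ZNF638 (0.57). It was lower for ZNF335 (-0.51), ZNF532 (-0.61), ZNF770 (-0.75), ZNF511 (-0.90), ZNF384 (-0.95) and ZNF800 (-1.21). All of these differences use the shHDAC2 DOX(-) arrays, which stood apart from the other 6 arrays. They also rest on the titles, because one label field names the other construct for these arrays and for shControl DOX(+).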

How the results depend on the processing

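The counts of called genes among the 84 were 49 upon DOX in shHDAC2 cells, 0 in shControl cells, 32 for the difference between the responses, 3 between the constructs with DOX, 49 without DOX and 5 for shHDAC2 DOX(+) against all shControl arrays. When 1 array was left out they ranged from 36 to 47, 0 to 0, 21 to 28, 1 to 3, 40 to 49 and 2 to 5. The lowest came without shControl DOX(+) replicate 1 for the difference, and without shHDAC2 DOX(+) replicate 1 for the last comparison. By the methods' t-test after adjustment the counts were 2 upon DOX in shHDAC2 cells, 3 without DOX, 0 with DOX and 2 against all shControl arrays, but 23 for the difference between the responses (17 higher and 6 lower). Testing every row of the table gave 21 for the difference between the responses, 1 with DOX and 3 against all shControl arrays. Testing only clusters with a mean of 6.0 or more gave 12 with DOX (3 higher and 9 lower) and 18 against all shControl arrays (4 higher and 14 lower). A variance trend with robust moderation gave 7 and 8. With at least 1.5-fold, and without members that have more than 1 cluster, 3 remained against all shControl arrays. With membership at a mean of 6.5 or more the counts were 30 upon DOX in shHDAC2 cells, 29 without DOX, 1 with DOX and 3 against all shControl arrays, from fewer genes. The causes of the other shifts were not tested. Members chosen by the mean of the shControl arrays, an alternative added after seeing the data, gave 56, 0, 39, 4, 58 and 7. Of 1047 comparisons of a named result with an alternative, 937 kept direction and side of the threshold, 108 lost the call, 2 gained one, 0 reversed. The gains were those of ZNF622 and ZNF746 upon DOX in shHDAC2 cells when only clusters with a mean of 6.0 or more were tested, and most losses came from the methods' t-test or from leaving out 1 array. RMA signals near background understate differences, and the number of arrays limits the precision.

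The replicate numbers were not taken as a pairing, because the labels give no shared origin and not every pair of groups reached a correlation over 0.1. Deviations of same-numbered arrays correlated at 0.007 to 0.214 across clusters, highest between both shControl groups, and at -0.122 to 0.44 across the 84 genes. With the replicate number as a block the counts were 50 upon DOX in shHDAC2 cells, 0 in shControl cells, 35 for the difference between the responses, 3 with DOX, 54 without DOX and 5 against all shControl arrays, and the calls of the fit without the block were all among them.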
